A study of Homo sapiens with 4 samples.

Results

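The MAP kinase dual-specificity phosphatases described here are 10 genes, DUSP1, DUSP2, DUSP4, DUSP5, DUSP6, DUSP7, DUSP8, DUSP10, DUSP14 and DUSP16, picked by their symbol from the 58735 genes of the deposited FPKM table. FPKM counts the reads of a gene relative to its length and to the depth of the library, and each symbol matched a single gene. The cells were OVCAR8, a long-established line from a human ovarian carcinoma. The shFAM49B group (2 libraries) carried short hairpins against FAM49B in a GIPZ lentiviral plasmid, and the shCON group (2 libraries) carried a scrambled hairpin. Both groups were lipofected and harvested 36 h later according to the protocols in the labels, while the series' design text calls the knockdown stable; neither the hairpin sequences nor any selection is stated in these sources. The question, per the study's title, is how FAM49B acts on tumour cell growth and on the MAPK pathway, and the groups allow a single comparison, shFAM49B against shCON. Whether replicate libraries stem from separate cultures is not labelled, so p-values reflect only the spread between these samples and that spread may be technical.

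MAP kinases are switched on by phosphorylation of a threonine and a tyrosine in their activation loop, and dual-specificity phosphatases remove both phosphates. Family members differ in their location and in the kinase they prefer. DUSP2, DUSP4 and DUSP5 are nuclear and act largely on ERK, DUSP6 and DUSP7 are cytoplasmic and act on ERK, DUSP8, DUSP10 and DUSP16 act on the stress kinases JNK and p38, and DUSP1 is nuclear and acts on all 3 kinase families. DUSP14 is an atypical member that lacks the kinase-docking domain of the others. Several of these genes are themselves induced by MAP kinase signalling and form negative feedback, and the DUSP6 transcript is widely read as a reporter of ERK activity.

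In shFAM49B cells, DUSP6 was close to the limit of detection and DUSP2 was 2.35-fold lower than in shCON cells, whereas DUSP1, the most abundant of the 10 genes, was 1.52-fold higher. Of the 9 members that could be tested, 3 rose (DUSP1, DUSP8 and DUSP10), 3 fell (DUSP2, DUSP7 and DUSP14) and 3 did not pass the test (DUSP4, DUSP5 and DUSP16). Across all 13775 genes tested, 26.4% rose and 15.8% fell, together 42.2%, at an adjusted p under 0.05 in limma, so calls were common in this comparison. DUSP6 averaged 0.534 FPKM over the 4 libraries, below the minimum mean of 1 FPKM, and entered no test in the main analysis. All 9 tested members averaged at least 1 FPKM in both groups. The median log2 fold change of the 9 tested members was 0.049, against 0.055 for all tested genes, and it was -0.030 with DUSP6 included.

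The DNA before the start of 4 members is shown. Their values differed between the groups, and their windows differ in the regulatory motifs searched for, with none in the DUSP6 window. Other members whose values also differed are not shown. RefSeq sequence was found for 8 of the 10 genes (9 starts, DUSP10 having 2), on GRCh38.p14. Each line gives the 250 bases before the RefSeq start, 5′ to 3′ on the gene's strand, which is the minus strand for all 4. RefSeq and the gene intervals of the deposited table place some starts differently: the DUSP6 window lies inside the DUSP6 interval of the table, and the DUSP8 window lies beyond the end of the DUSP8 interval without touching it. Capitals mark matches to the cAMP response element TGACGTCA, the E-box CACGTG or the TATA box TATAAA.
DUSP1, chr5:172771196-172771445: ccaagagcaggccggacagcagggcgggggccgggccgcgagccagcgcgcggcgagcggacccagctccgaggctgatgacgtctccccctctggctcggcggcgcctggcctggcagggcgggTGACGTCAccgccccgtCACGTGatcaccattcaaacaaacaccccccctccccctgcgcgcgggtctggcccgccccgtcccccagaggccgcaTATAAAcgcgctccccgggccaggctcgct
DUSP8, chr11:1572272-1572521: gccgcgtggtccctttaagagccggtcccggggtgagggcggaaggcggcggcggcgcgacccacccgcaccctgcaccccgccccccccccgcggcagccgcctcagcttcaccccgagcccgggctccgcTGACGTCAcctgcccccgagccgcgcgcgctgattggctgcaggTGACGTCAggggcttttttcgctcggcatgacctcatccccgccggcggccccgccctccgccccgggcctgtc
DUSP2, chr2:96145441-96145690: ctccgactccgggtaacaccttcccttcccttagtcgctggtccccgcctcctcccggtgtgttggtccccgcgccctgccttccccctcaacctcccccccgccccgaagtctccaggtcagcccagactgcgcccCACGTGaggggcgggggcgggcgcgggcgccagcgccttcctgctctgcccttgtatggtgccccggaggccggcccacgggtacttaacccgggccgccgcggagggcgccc
DUSP6, chr12:89352502-89352751: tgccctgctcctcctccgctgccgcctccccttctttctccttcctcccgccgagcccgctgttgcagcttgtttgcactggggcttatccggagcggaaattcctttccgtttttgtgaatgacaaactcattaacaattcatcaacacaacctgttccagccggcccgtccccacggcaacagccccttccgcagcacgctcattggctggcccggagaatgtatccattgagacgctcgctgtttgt

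The cAMP response element, the site of CREB and ATF factors, was found in DUSP1 at 125 bases before the start and in DUSP8 at 118 and 74 bases before the start, and in no other member searched. It lies in 1.65% of the 35116 RefSeq starts searched over the same 250 bases on both strands. The E-box, a site of MYC and related factors, occurred in DUSP1 and DUSP2 and in 6.34% of all starts, and the TATA box occurred in DUSP1 and in 10.7% of all starts. The AP-1 motif TGANTCA (6.57% of starts), the ETS motif CCGGAAGT (3.42%), the heat shock motif GAANNTTC (5.78%) and the CArG box of SRF (1.16%) were in none of the 9 windows, and none of the searched motifs contains another. The GC box GGGCGG, not marked, was in 7 of the 8 genes and in 42.6% of starts, and no searched motif occurred in the DUSP6 window. A match describes the letters in this window, and binding was not measured.

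DUSP1 (ENSG00000120129, chromosome 5, 172768090 to 172771195 on GRCh38, minus strand) is a nuclear phosphatase of ERK, JNK and p38 that stress and growth factors induce rapidly. It had 37.5 and 43.9 FPKM in the shFAM49B libraries, against 23.8 and 29.7 FPKM in the shCON libraries. Both shFAM49B values lay above both shCON values, although the libraries of each group differed by several FPKM. The mean was 40.7 ± 4.56 FPKM in shFAM49B and 26.7 ± 4.19 FPKM in shCON (SD, n = 2 each), and DUSP1 rose by a log2 fold change of 0.59 (SE 0.128, adjusted p = 0.0178 in limma). Every log2 fold change of the test is a difference of log2(FPKM + 1) values, which makes changes of weakly expressed genes look smaller. The rise no longer passed when values were rescaled to TPM (0.36, adjusted p = 0.0761), divided by the reads of each library (0.37, adjusted p = 0.0718) or quantile normalized (0.40, adjusted p = 0.0641), nor when genes of all levels were tested (0.59, adjusted p = 0.0852), nor without shFAM49B replicate 2 (0.48, adjusted p = 0.0871) or shCON replicate 1 (0.44, adjusted p = 0.0530). An antisense gene, AC022217.3, spans the whole of DUSP1 and was listed at 0 to 0.323 FPKM; the library kit is not named as keeping strand, so reads of the pair cannot be told apart.

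**Figure D1:**
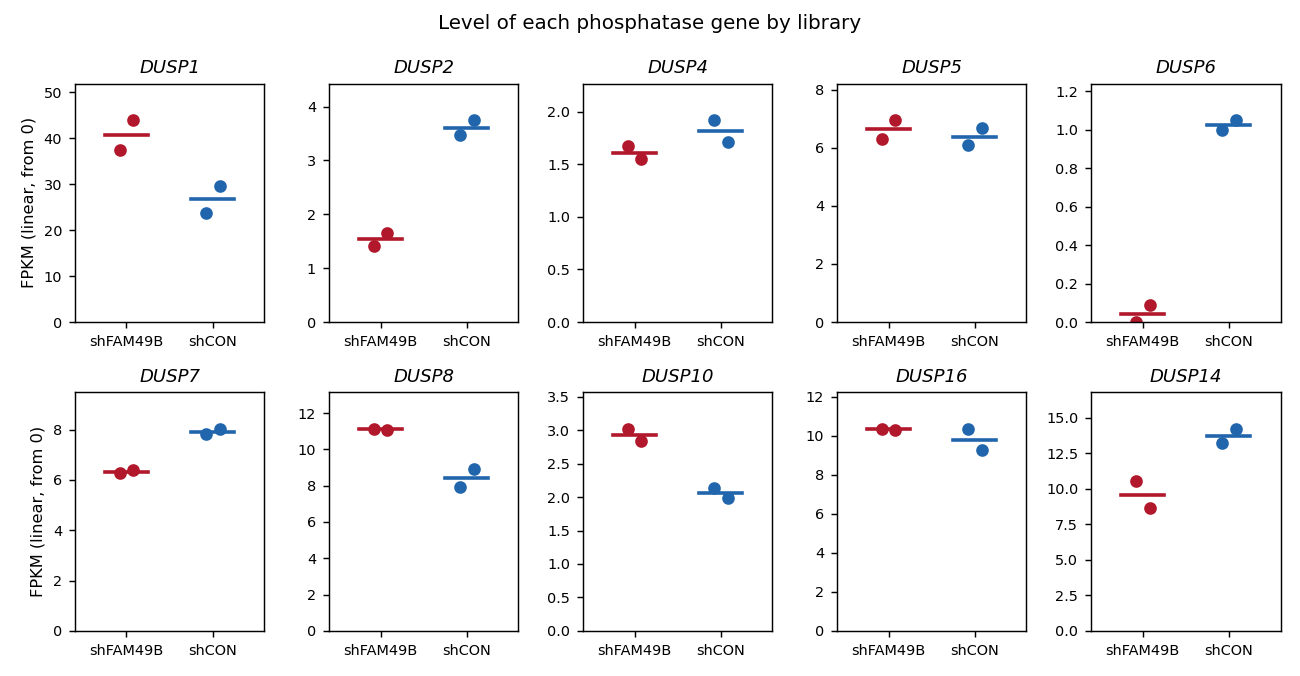
FPKM of each of the 10 genes (vertical axis, linear and starting at 0, with its own range in each panel) in the shFAM49B libraries (red, left) and the shCON libraries (blue, right). Points are libraries and lines are group means of n = 2; DUSP6 lies at 0 and 0.0866 FPKM in shFAM49B, against 0.998 and 1.05 FPKM in shCON, and the groups overlap for DUSP5 and DUSP16.

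Among the nuclear ERK phosphatases, DUSP2 fell while DUSP4 and DUSP5 did not pass. DUSP2 (ENSG00000158050, chromosome 2, 96143166 to 96145440, minus strand), a phosphatase known from activated immune cells, had 1.42 and 1.66 FPKM in shFAM49B, against 3.47 and 3.75 FPKM in shCON. The gap between the groups was several times the difference within either. These values rest on 42 and 48 reads in shFAM49B and on 113 and 134 reads in shCON. The log2 fold change of DUSP2 was -0.86 (SE 0.104, adjusted p = 0.00365 in limma), the smallest p among the members. It was also the only tested member called under all alternatives that tested it, 13 in number, with log2 fold changes of -1.32 to -0.79.

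DUSP4 (ENSG00000120875, chromosome 8, 29333064 to 29350668, minus strand), which dephosphorylates ERK and JNK in the nucleus, had 1.67 and 1.55 FPKM in shFAM49B, against 1.92 and 1.71 FPKM in shCON. The groups lay next to each other, with the higher shFAM49B library just under the lower shCON library. Its log2 fold change was -0.11 with a 95% interval of -0.40 to 0.19 (limma adjusted p = 0.492). DUSP5 (ENSG00000138166, chromosome 10, 110497838 to 110511544, plus strand), an ERK-specific nuclear phosphatase, had 6.31 and 6.95 FPKM in shFAM49B, against 6.08 and 6.68 FPKM in shCON. Its groups overlapped, with a log2 fold change of 0.049 and a 95% interval of -0.16 to 0.25 (limma adjusted p = 0.659), and the sign turned negative under TPM (-0.18) and relative to recovered reads (-0.15).

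The cytoplasmic ERK phosphatases among the listed members, DUSP6 and DUSP7, were both lower in the shFAM49B libraries. DUSP6 (ENSG00000139318, chromosome 12, 89347232 to 89353271, minus strand) was listed at 0 and 0.0866 FPKM in shFAM49B, against 0.998 and 1.05 FPKM in shCON. These values correspond to 0 and 6 reads in shFAM49B and to 78 and 90 reads in shCON, so the transcript was scarce in shCON too. A count of 0 allows up to 3 reads, or 0.0422 FPKM, in that library. Scaled by the deposited depth factors, the ratio of shCON to shFAM49B reads was 24.0, with an exact 95% interval of 10.8 to 66.3 that covers counting error only. When genes of all levels were tested together (32758 genes, of which 4.21% were called lower), DUSP6 had a log2 fold change of -0.96 (SE 0.109, limma adjusted p = 0.0253), a value that the added 1 FPKM compresses. An antisense gene within the DUSP6 locus, AC024909.2, was listed at 0 in all 4 libraries.

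DUSP7 (ENSG00000164086, chromosome 3, 52048919 to 52056550, minus strand) is the other cytoplasmic ERK phosphatase among the listed members. It had 6.27 and 6.39 FPKM in shFAM49B, against 7.81 and 8.03 FPKM in shCON. Replicates agreed closely and the groups did not overlap. DUSP7 fell by 0.28 on the log2 scale (SE 0.0628, limma adjusted p = 0.0192), and its mean was 6.33 ± 0.0842 FPKM in shFAM49B and 7.92 ± 0.159 FPKM in shCON. The fall was larger as TPM (-0.55, adjusted p = 0.00489), and it failed the threshold whenever any of the 4 libraries was left out (adjusted p = 0.0640 to 0.102).

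Among the phosphatases of JNK and p38, DUSP8 and DUSP10 were higher and DUSP16 was not. DUSP8 (ENSG00000184545, chromosome 11, 1554044 to 1571920, minus strand), which prefers JNK, had 11.1 and 11.1 FPKM in shFAM49B, against 7.90 and 8.92 FPKM in shCON. The shFAM49B libraries were nearly equal and lay above both shCON libraries. DUSP8 rose by a log2 fold change of 0.36 (SE 0.0755, limma adjusted p = 0.0157). Its rise did not pass as TPM (0.15, adjusted p = 0.202), relative to recovered reads (0.16, adjusted p = 0.162) or when genes of all levels were tested (adjusted p = 0.0569), and without shFAM49B replicate 1, shFAM49B replicate 2 or shCON replicate 1 the adjusted p was 0.0632, 0.0664 and 0.0728. DUSP8 has processed pseudogenes in the table, and reads shared with them could have been split by the counting: DUSP8P5, the most abundant, had 1.11 and 1.88 FPKM in shFAM49B, against 1.24 and 1.25 FPKM in shCON.

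DUSP10 (ENSG00000143507, chromosome 1, 221701424 to 221742176, minus strand), a phosphatase of JNK and p38, had 3.02 and 2.84 FPKM in shFAM49B, against 2.14 and 1.99 FPKM in shCON. The groups did not overlap. Its rise was 0.36 on the log2 scale (SE 0.0946, limma adjusted p = 0.0313), the largest adjusted p among the 6 called members. It did not pass as TPM (0.24, adjusted p = 0.162), relative to recovered reads (0.20, adjusted p = 0.141), with genes of all levels tested (adjusted p = 0.0961) or without any of the 4 libraries (adjusted p = 0.0810 to 0.138). DUSP16 (ENSG00000111266, chromosome 12, 12474210 to 12562383, minus strand), a JNK phosphatase that shuttles between nucleus and cytoplasm, had 10.4 and 10.3 FPKM in shFAM49B, against 10.3 and 9.28 FPKM in shCON. The groups overlapped, and the log2 fold change of 0.070 had a 95% interval of -0.11 to 0.25 (limma adjusted p = 0.470), with the sign negative as TPM (-0.16), relative to recovered reads (-0.13) and, at -0.00041, without shCON replicate 2.

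DUSP14 (ENSG00000276023, chromosome 17, 37489831 to 37513501, plus strand), the atypical member, is known in T cells for acting on the kinase adaptor TAB1. It had 10.6 and 8.64 FPKM in shFAM49B, against 13.3 and 14.2 FPKM in shCON. The shFAM49B libraries differed from each other more than the shCON libraries did, yet both lay below shCON. DUSP14 fell by 0.48 on the log2 scale (SE 0.103, limma adjusted p = 0.0174) and fell further as TPM (-0.75, adjusted p = 0.00956). The call was lost without shFAM49B replicate 2 (-0.35, adjusted p = 0.0509), without shCON replicate 2 (-0.43, adjusted p = 0.0773) and when genes of all levels were tested (adjusted p = 0.0764).

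**Figure D2:**
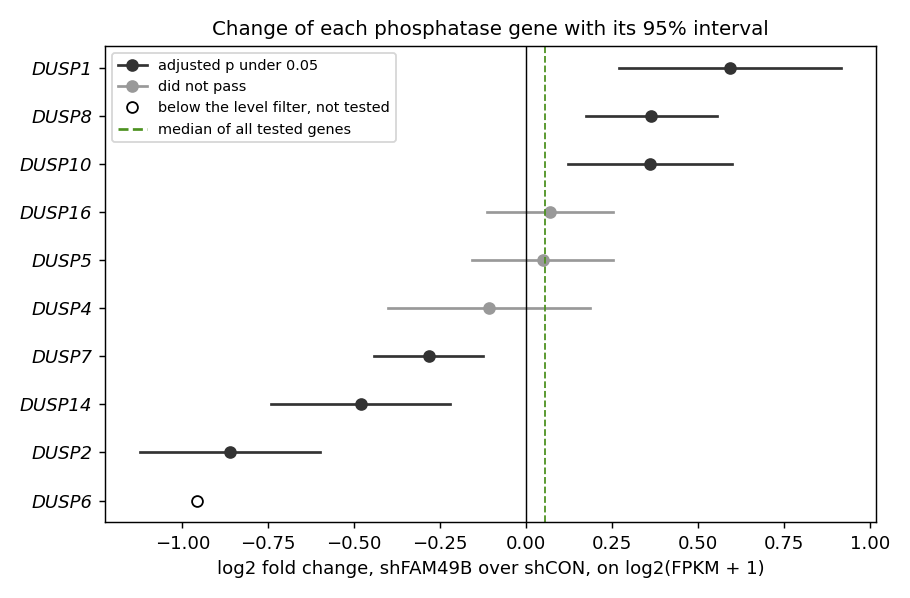
Log2 fold change of shFAM49B over shCON on log2(FPKM + 1) (horizontal axis) for each of the 10 genes, with 95% intervals from limma (n = 2 libraries per group). DUSP1, DUSP8 and DUSP10 lie to the right of 0 and DUSP7, DUSP14 and DUSP2 to the left, DUSP6 is drawn without an interval because it was not tested, and the dashed line is the median of all tested genes, 0.055.

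Values of shFAM49B and shCON did not overlap for 8 of the 10 members (7 of the 9 tested), and this held for 74.7% of all tested genes. The direction of the calls is relative to the scaling of the libraries, since conversion to TPM shifted the tested genes by a median log2 value of -0.24 and dividing by recovered reads shifted them by -0.19. Under both of these scalings, which lower every shFAM49B value relative to shCON and so can only enlarge a fall, no member was called higher and DUSP2, DUSP7 and DUSP14 were called lower. After scaling by median ratios over the tested genes, DUSP1, DUSP8 and DUSP10 had log2 fold changes of 0.53, 0.30 and 0.31 and passed (adjusted p = 0.0262, 0.0290 and 0.0491). The rises as deposited passed with the minimum mean of 1 FPKM, and none of the 3 passed when genes of all levels were tested.

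**Figure D3:**
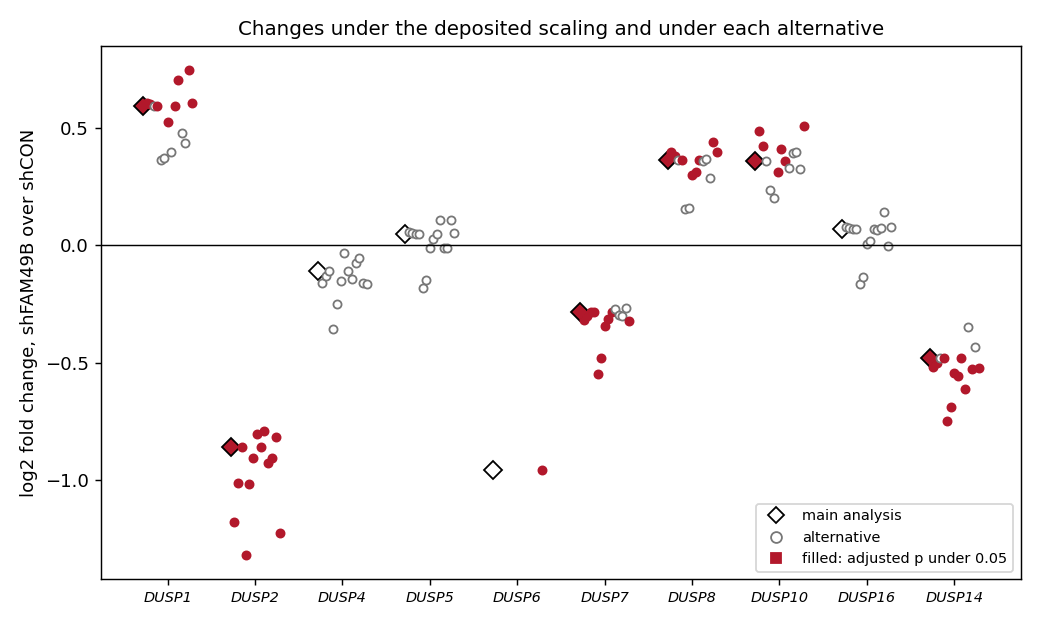
Log2 fold change of shFAM49B over shCON (vertical axis) for each gene in the main analysis (diamonds) and under each alternative scaling, filter, pseudocount, pairing, test or left-out library (circles), filled where the adjusted p was under 0.05. All DUSP2 symbols are filled and lie between -1.32 and -0.79, while those of DUSP1, DUSP8 and DUSP10 stay above 0 and are filled in part.

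The makeup of the summed FPKM of the 10 genes, which does not depend on how libraries are scaled, differed between the groups. DUSP1 took 42.5% and 47.0% of the summed FPKM of the 10 genes in the shFAM49B libraries, against 30.6% and 34.8% in the shCON libraries. DUSP2 took 1.61% and 1.78% in shFAM49B, against 4.47% and 4.40% in shCON. DUSP14 took 12.0% and 9.25% in shFAM49B, against 17.1% and 16.7% in shCON. Shares add to a whole, so a larger share of DUSP1 lowers the others; DUSP8 and DUSP10 had larger shares in shFAM49B even so, at 12.6% and 11.8% for DUSP8 against 10.2% and 10.4% in shCON, and at 3.42% and 3.04% for DUSP10 against 2.75% and 2.33% in shCON. With 2 libraries per group an exact permutation test could not reach the threshold, so shares are given without a test.

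By preferred kinase, the nuclear ERK phosphatases (DUSP2, DUSP4 and DUSP5) summed to 9.40 and 10.2 FPKM in shFAM49B, against 11.5 and 12.1 FPKM in shCON. The cytoplasmic ERK pair (DUSP6 and DUSP7) summed to 6.27 and 6.48 FPKM in shFAM49B, against 8.81 and 9.08 FPKM in shCON. The JNK and p38 group (DUSP8, DUSP10 and DUSP16) summed to 24.5 and 24.2 FPKM in shFAM49B, against 20.4 and 20.2 FPKM in shCON. Each of these sums separated the groups, the ERK sums being lower and the stress-kinase sum higher in shFAM49B as deposited. Among single tested genes, 74.7% separated the groups too. DUSP4, DUSP5 and DUSP16 did not pass the test. The lower nuclear ERK sum thus rests on DUSP2, which averaged 1.54 FPKM in shFAM49B and 3.61 FPKM in shCON. DUSP9, a classical family member outside the 10 genes, is in none of the sums. It averaged 43.0 FPKM in shFAM49B, against 38.8 FPKM in shCON, which is more than any of these sums. The directions therefore hold for these sums, and neither for each listed member nor for all phosphatases of a class. As TPM the log2 ratio of the stress-kinase sum was 0.021 and those of the ERK sums were -0.52 (nuclear) and -0.73 (cytoplasmic).

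**Figure D4:**
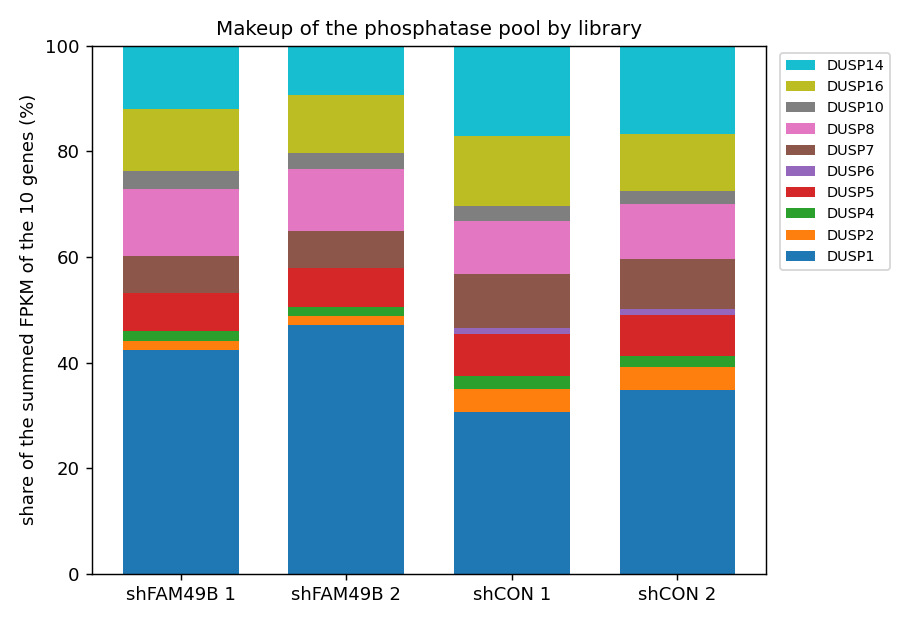
Share of the summed FPKM of the 10 genes (vertical axis, percent) in each library, shFAM49B left and shCON right, stacked by gene. DUSP1 makes up 42.5% and 47.0% in shFAM49B, against 30.6% and 34.8% in shCON, and the DUSP2 band is 1.61% and 1.78% against 4.47% and 4.40%.

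The order of levels per kilobase changed in its middle. In shFAM49B it ran DUSP1, DUSP8, DUSP16, DUSP14, DUSP5, DUSP7, DUSP10, DUSP4, DUSP2 and DUSP6. In shCON it ran DUSP1, DUSP14, DUSP16, DUSP8, DUSP7, DUSP5, DUSP2, DUSP10, DUSP4 and DUSP6. Neighbours whose library values overlapped, and so were not told apart, were DUSP16 and DUSP14, DUSP5 and DUSP7, and DUSP4 and DUSP2 in shFAM49B, and DUSP8 and DUSP7 in shCON. DUSP1 led and DUSP6 was last in both groups. DUSP9, a classical phosphatase of this family outside the 10 genes and named here after its values were seen, stood at 40.6 and 45.3 FPKM in shFAM49B, against 39.3 and 38.4 FPKM in shCON (log2 fold change 0.14, limma adjusted p = 0.166).

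The MAP kinases include the substrates of these phosphatases, ERK, JNK and p38, and also atypical kinases such as MAPK6. Of 11 tested MAP kinases, 2 rose, 2 fell and 7 did not pass. Their median log2 fold change was -0.030, against 0.055 for all tested genes, of which 26.4% rose and 15.8% fell. MAPK3, which encodes ERK1, rose to 45.4 ± 2.14 FPKM in shFAM49B, against 36.9 ± 0.203 FPKM in shCON. That is a log2 fold change of 0.29, where conversion to TPM shifted the tested genes by a median of -0.24. Genes of this and the following lists are given under the deposited scaling only. MAPK14, which encodes p38 alpha, fell to 10.6 ± 0.131 FPKM in shFAM49B, against 12.7 ± 0.162 FPKM in shCON, and the atypical MAP kinase MAPK6 fell by 0.41 on the log2 scale (limma adjusted p = 0.0217 for MAPK14, 0.0148 for MAPK3 and 0.0116 for MAPK6). Of 19 tested MAP2K, RAF and other MAP3K kinases, 7 rose and 4 fell (median 0.046), and those with the smallest p were MAP2K7, a JNK kinase (log2 fold change 0.81), the RAF kinase ARAF (0.61) and MAP3K1 (0.47). Of 10 tested kinases that MAP kinases activate, 2 rose and 2 fell (median -0.011): MAPKAPK3, a p38 target, and RPS6KA2 rose by 0.52 and 0.52, and RPS6KA4 fell by 0.43.

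Other phosphatases mostly did not pass, as was true of most tested genes, of which 42.2% were called. Of 14 tested atypical and other dual-specificity phosphatases, 1 rose (STYXL1, a catalytically inactive relative, log2 fold change 0.46), 2 fell (STYX, -0.55, and the cofilin phosphatase SSH1, -0.24) and 11 did not pass (median -0.047). Of 6 tested tyrosine and serine/threonine phosphatases of MAP kinases, PPP2R1A, the scaffold of protein phosphatase 2A, rose by 0.45 and PPP2CA, a catalytic subunit of the same enzyme, fell by 0.42.

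Genes downstream of the kinases are given beside the members because DUSP6 is read as an ERK output. For comparison with the counts below, 26.4% of all tested genes rose and 15.8% fell. Of 10 tested ERK output genes other than DUSPs, 7 fell, 1 rose (EPHA4, named after its values were seen) and 2 did not pass (median -0.66). IER3, CCND1 and SPRED2 had the smallest p. The list held 15 genes, and the rest were below the level filter and not tested. Their means in shFAM49B and shCON were 0.156 and 1.77 FPKM (ETV4), 0.130 and 1.23 FPKM (ETV5) and 0.0253 and 0.253 FPKM (SPRY4). They were 0.168 and 0.265 FPKM for ETV1 and 0.575 and 0.510 FPKM for SPRED3. Of 12 tested immediate early genes, 5 rose and 5 fell (median -0.053): JUN, whose protein JNK phosphorylates, rose by 1.77 and KLF6 by 1.11, and MCL1 fell by 0.69. Of 9 tested heat shock genes, 7 rose and 1 fell (median 0.45), with DNAJB1, HSPA1B and HSPA8 rising by 1.81, 1.57 and 1.47 in the libraries in which DUSP1 was higher; their part in the DUSP1 result was not tested.

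By distance between the 4 centred log2(FPKM + 1) values, the protein-coding genes most like DUSP2 among the 11400 compared were STC2 (distance 0.0251), FZD8 (0.0522) and C11orf96 (0.0613). Those most like DUSP6 were BCAM (0.0498), NCOA5 (0.0648) and ZBTB2 (0.0692). With 4 libraries in 2 groups this measure ranks little more than the size of the difference between the groups on this scale. For DUSP6 the added 1 FPKM compresses that difference, so its neighbours do not share its fold change. BCAM had 6.99 and 7.84 FPKM in shFAM49B, against 15.5 and 15.2 FPKM in shCON. DUSP6 had 0 and 0.0866 FPKM, against 0.998 and 1.05 FPKM.

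Recovered depth was 16288871 and 16290200 reads in shFAM49B and 15639559 and 16875353 reads in shCON. FAM49B itself stood at 1.06 and 1.02 FPKM in shFAM49B, against 7.41 and 7.60 FPKM in shCON, as labelled (log2 fold change -2.06, limma adjusted p = 0.00054). Of 9 markers of ovarian or epithelial cancer, PAX8, KRT7 and MUC16 were under 1 FPKM in all libraries, and 4 were called lower. The list summed to 65.3 and 65.9 FPKM in shFAM49B, against 131 and 125 FPKM in shCON. Most of that difference was KRT19, which averaged 2.52 FPKM in shFAM49B and 51.6 FPKM in shCON. KRT8 averaged 37.9 FPKM in shFAM49B and 40.4 FPKM in shCON and did not pass. All 5 keratins of stratified epithelium fell, their sum being 31.5 and 34.5 FPKM in shFAM49B, against 538 and 475 FPKM in shCON. PTPRC, the defining leukocyte marker, was at 0 in 3 of the 4 libraries and at 0.00711 FPKM in the other. Markers of other cells were low: the sums of 4 leukocyte and 3 endothelial markers were 1.28 and 1.09 FPKM and 0.0806 and 0.0348 FPKM in shFAM49B, against 1.25 and 1.53 FPKM and 0.218 and 0.191 FPKM in shCON. The 5 fibroblast markers, of which COL1A1 made up most, summed to 6.09 and 6.65 FPKM in shFAM49B, against 5.79 and 6.37 FPKM in shCON. In bulk RNA, fewer cells of a type and less RNA per cell cannot be told apart, and the part of the epithelial difference in the phosphatase values was not tested.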

How the data were processed

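RNA-seq gene levels of 4 OVCAR8 libraries were analysed, grouped by sample title. The authors deposited FPKM for 58735 genes, per the file headers; the sources name neither aligner nor counting tool. GRCm38 and mm10, mouse builds, stand in the submitters' processing notes, but all identifiers and coordinates match human GENCODE release 29 (GRCh38). Products of FPKM and gene length were whole multiples of a step in each library for 100% of values above 0 (tolerance 0.001 of a step), which gave recovered reads. The denominators behind the deposited FPKM were 0.941 and 0.919 times the reads in shFAM49B and 1.08 and 1.10 times in shCON, so library factors were already in the values. Replicates differed by a chi-square of 3.48 (shFAM49B) and 3.90 (shCON) per gene, against 48.9 to 56.1 between groups, and each was kept.

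Tests used limma (version 3.58.1, R version 4.3.3) with a variance trend on log2(FPKM + 1), for the 13775 genes averaging 1 FPKM or more, two-sided, with Benjamini-Hochberg adjustment over all of them and a threshold of 0.05. There were 2 residual and 3.32 prior degrees of freedom. The procedure was tested on simulated data. Members and lists were chosen with earlier results of these data known. Named genes are all members, FAM49B, up to 3 called genes with the smallest p per list, the 3 nearest patterns to DUSP2 and DUSP6, and cell markers. EPHA4, the untested ERK output genes, DUSP9, DUSP23 and the antisense genes and pseudogenes of members were added after their values were seen. Alternatives changed the pseudocount (0.1, 0.5), filter (none, 5 FPKM), scaling (TPM, recovered reads, median ratios, quantiles), replicate block, test and libraries.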

Additional observations from a re-analysis of the deposited data

How the results depend on the processing

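Without a filter on low values, DUSP1 (0.59, adjusted p = 0.0852), DUSP8 (0.36, 0.0569), DUSP10 (0.36, 0.0961) and DUSP14 (-0.48, 0.0764) kept their log2 fold changes but not their calls in limma, DUSP6 passed (-0.96), 0 members were higher, and 2185 genes were higher and 1378 lower. With a minimum of 5 FPKM, 1322 genes were lower, and DUSP2, DUSP4 and DUSP10 were not tested. As TPM the log2 fold changes were 0.36 (DUSP1), 0.15 (DUSP8), 0.24 (DUSP10), -0.18 (DUSP5) and -0.16 (DUSP16), 0 members and 1597 genes were higher and 4362 genes lower, and the summed classes had log2 ratios of -0.52 (nuclear ERK), -0.73 (cytoplasmic ERK) and 0.021 (JNK and p38). Relative to recovered reads the values were 0.37 (DUSP1), 0.16 (DUSP8), 0.20 (DUSP10), -0.15 (DUSP5) and -0.13 (DUSP16), 0 members and 1722 genes were higher and 4173 lower, and the classes had -0.50, -0.72 and 0.040. Both scalings lower all shFAM49B values relative to shCON by construction. Median ratios gave DUSP5 -0.011 and class ratios of -0.56 (cytoplasmic ERK) and 0.20 (JNK and p38), and quantile normalization gave DUSP1 0.40 (adjusted p = 0.0641) and 0.22 for JNK and p38, against 0.26 as deposited. For the remaining differences the cause was not tested.

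Leaving out each library in turn, each lone library being assumed to vary like the other group, gave log2 fold changes of 0.44 to 0.75 (DUSP1), -0.93 to -0.79 (DUSP2), -0.012 to 0.11 (DUSP5), -0.30 to -0.27 (DUSP7), 0.29 to 0.44 (DUSP8), 0.33 to 0.40 (DUSP10), -0.61 to -0.35 (DUSP14) and -0.00041 to 0.14 (DUSP16). DUSP5 was negative without shFAM49B replicate 2 or shCON replicate 1. Then 0 to 2 members were higher (0 without shFAM49B replicate 2 or shCON replicate 1) and 1 to 2 lower, with 2039 to 2590 genes higher and 1064 to 1613 lower; fewer samples leave 1 residual degree of freedom. FAM49B was lower under all 13 alternatives that tested it, and the minimum of 5 FPKM left it out.

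Replicate numbers were shared between the groups but did not pair them (correlation of same-numbered deviations -0.0132 over 13775 genes). With the replicate block 3 members were higher and 3 lower, as were 3429 and 2036 genes, and no member's call changed. Voom on recovered reads, chosen after seeing the data, also called 3 members higher and 3 lower. The planned edgeR and DESeq2 tests were not used, and voom on the recovered reads stands in their place. Depth limits DUSP6 and DUSP2 most, at 0 to 90 and 42 to 134 reads per library.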

Other observations

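DUSP23, a small atypical phosphatase outside the 10 genes that was picked out after its values were seen, had 0 reads in both shFAM49B libraries, against 11 and 21 reads (0.790 and 1.38 FPKM) in the shCON libraries. A count of 0 allows up to 3 reads, or 0.237 and 0.243 FPKM, in the shFAM49B libraries. The processed pseudogene DUSP5P1 was listed at 0.115 and 0.235 FPKM in shFAM49B, against 0.625 and 1.19 FPKM in shCON, whereas its parent DUSP5 overlapped between the groups. DUSP8P3, a processed pseudogene of DUSP8, was listed at 1.04 and 0.645 FPKM in shFAM49B, against 0.135 and 0.277 FPKM in shCON. None of the 3 was tested in the main analysis, and how the counting treated reads shared between a pseudogene and its parent is not known.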
